A study of Mus musculus with 24 samples.

Results

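The miRNAs described here are 7 mature miRNAs from 4 families that are known for their roles in immune cells and microglia. They are mmu-mir-146a-5p, mmu-mir-146a-3p, mmu-mir-146b-5p, mmu-mir-155-5p, mmu-mir-142a-5p, mmu-mir-142a-3p and mmu-mir-223-3p. They were picked by name, and all 7 of the 1073 mature miRNA names with a read in the series had at least 1 read. Small RNA was sequenced from exosome-enriched fractions (EEFs) of the hippocampus of male C57BL/6 mice (C57BL/6OlaHsd by the study's methods), which were 6–9 weeks old. The mice received either kainic acid (KA, 0.3 µg in 0.2 µl), which triggers status epilepticus, or PBS as control, into the basolateral amygdala, and seizures were curtailed with midazolam (8 mg/kg) after 40 min. EEFs were prepared 24 h or 2 weeks later by ultracentrifugation (UC), from pools of 5 hippocampi, or by precipitation with the ExoQuick kit, from pools of 4 hippocampi, and were treated with RNase A before RNA was extracted. Method, treatment and time thus gave 8 groups, with 3 libraries in each. Mice were of one strain and were perfused with PBS, and a library stands for a pool rather than for an animal. The labels do not say what the replicate numbers stand for, so p-values measure the spread between these libraries.

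miRNAs guide Argonaute proteins to mRNAs that pair with the seed, the bases 2 to 8 of the miRNA. NF-kB, a transcription factor switched on by Toll-like and interleukin-1 receptors, drives transcription of miR-146a and miR-155 in immune cells and glia. miR-146a and miR-146b repress Irak1 and Traf6, which carry the signal from these receptors, and so act as a brake, whereas miR-155 represses Socs1 and Inpp5d and tends to strengthen the response. miR-142 and miR-223 are made mainly in blood-forming lineages, miR-142 in nearly all leukocytes and miR-223 in neutrophils and other myeloid cells.

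The mature sequences below show which of the 7 share a seed, given in capitals. All 7 matched the RefSeq table, and the places are on GRCm38.p6.
mmu-mir-146a-5p: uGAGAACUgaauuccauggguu
mmu-mir-146b-5p: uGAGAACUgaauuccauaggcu
mmu-mir-146a-3p: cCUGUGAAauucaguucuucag
mmu-mir-155-5p: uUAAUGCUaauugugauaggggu
mmu-mir-142a-5p: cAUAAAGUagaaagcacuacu
mmu-mir-142a-3p: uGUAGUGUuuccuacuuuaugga
mmu-mir-223-3p: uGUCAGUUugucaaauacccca

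Only miR-146a-5p and miR-146b-5p shared a seed, and no other mature sequence among the 1679 in the table had it. Both are 22 bases long, share their first 17 bases and are identical at 20 positions. Counted from the 5′ end of miR-146a-5p, they differ by G18A and U21C. A read that covers both positions tells them apart, and a read that ends within the shared 17 bases does not. How such reads were assigned is not given in the sources used here. miR-146a-5p lies on chromosome 11 (43374435 to 43374456, minus strand), where the GENCODE annotation places no other gene. miR-146b-5p lies on chromosome 19 (46342790 to 46342811, plus strand) in an intron of Mfsd13a. miR-155-5p lies in an exon of its host transcript Mir155hg on chromosome 16 (84714143 to 84714165). Both arms of miR-142a lie on chromosome 11 (87756867 to 87756887 and 87756903 to 87756925) in an intron of Mir142hg. miR-223-3p lies on chromosome X (96242884 to 96242905) in an exon of F630028O10Rik. The miR-155, miR-142a and miR-223 loci are on the plus strand.

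The 12 UC libraries held 85436 to 169639 counts and the 12 kit libraries 154884 to 676726, and 1 read stood for 5.89 to 11.7 CPM (counts scaled to the library total) in UC libraries and for 1.48 to 6.46 CPM in kit libraries. Counting error alone did not account for the spread within groups, as chi-square divided by its degrees of freedom reached 5.12 to 155.73 in the 24 pairs of replicates. Differential expression was tested with edgeR's quasi-likelihood test on the counts, with Benjamini-Hochberg adjustment over the 420 miRNAs tested with UC, the 520 with the kit or the 397 tested with both, and a miRNA was called at an adjusted p under 0.05. A log2 fold change is given only for a miRNA with at least 120 reads over the 12 libraries of a method. Levels in CPM given below for libraries and groups were also scaled with TMM factors within each method. Groups are said not to overlap where their ranges stay apart. With 3 libraries a side, this can arise without a difference between groups. How many of all miRNAs tested did so was not worked out, so it is a description and not a test. In EEFs, fewer vesicles from a cell type and less of a miRNA per vesicle cannot be told apart.

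miR-146a-5p and miR-146b-5p carried nearly all reads of the 7 miRNAs, with 13721 reads (38.8%) and 21238 reads (60.0%) over the 24 libraries. With UC, miR-146b-5p ranked 25th and miR-146a-5p 40th by mean CPM among 859 miRNAs with a read. With the kit, they ranked 36th and 54th among 961. The 5 other miRNAs were sparse. miR-142a-5p had 308 reads, miR-142a-3p 64, miR-223-3p 37, miR-155-5p 9 and miR-146a-3p 1. The 7 miRNAs together made up 0.572 to 1.19% of the counts of a UC library and 0.238 to 1.03% of those of a kit library.

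miR-146a-5p was higher in EEFs of KA mice than of controls at 2 weeks, whereas no difference was called at 24 h. With UC at 2 weeks, controls had 281, 339 and 229 reads in replicates 1 to 3 and KA libraries 718, 798 and 890, and reads are given in this order throughout. The groups did not overlap, and scaled by library with TMM factors the level was 2255 ± 83.0 CPM in controls and 5239 ± 1215 CPM in KA libraries (SD, n = 3 each). Every KA library lay above every one of the 9 other UC libraries, of which the highest had 2391 CPM.

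Between these groups, miR-146a-5p differed by a log2 fold change of 1.22 ± 0.27 (SE, 95% confidence interval 0.67 to 1.77, adjusted p = 0.0149, edgeR). It was the only one of the 7 called in this comparison, where 0.952% of the 420 miRNAs tested were called. Without control replicate 3 the log2 fold change was 1.24 and the call was lost (adjusted p = 0.0743, edgeR). Scaled to the miRNAs that served as reference in the study's PCR (miR-25-3p, miR-92b-3p), the median of all miRNAs tested shifted to -0.54 (from 0.02 with TMM) and miR-146a-5p stood at 0.57 (adjusted p = 0.731, edgeR). A single cell type marker of those tested moved in the same comparison. miR-204-5p, which is abundant in choroid plexus, had a log2 fold change of 1.88 (SE 0.43, adjusted p = 0.0149, edgeR). The summed level of the 2 choroid plexus markers was 279 to 603 CPM in these controls and 542, 621 and 3385 CPM in the KA libraries, with miR-211-5p at 0 in all 6. The highest sum was in KA replicate 3, which also had the highest miR-146a-5p level. Without that library, miR-146a-5p had a log2 fold change of 1.12 (adjusted p = 0.0238, edgeR).

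With the kit at 2 weeks, controls had 173, 541 and 357 reads of miR-146a-5p and KA libraries 359, 5100 and 945. With TMM factors, the controls lay at 662, 1462 and 1480 CPM and the KA libraries at 1495, 8752 and 3464 CPM, so that the groups met without overlapping. Scaled to the library total alone, they overlapped. Control replicate 3 had 357 reads in 219326 counts and KA replicate 1 had 359 reads in 247015 counts. KA replicate 2 held 5100 of the 6404 reads of its group, and it was also the deepest library of the series. The log2 fold change was 1.93 ± 0.48 (SE, 95% confidence interval 0.92 to 2.93), with an unadjusted p of 0.000646 and an adjusted p of 0.168 (edgeR). None of the 7 was called, and neither was any other miRNA (0% of 520), whereas 14 miRNAs passed an unadjusted p of 0.05. With libraries of the same number paired in a replicate block, it stood at 1.74 and miR-146a-5p was called (adjusted p = 0.00528, edgeR). Without KA replicate 2 it was 1.14 (unadjusted p = 0.0132, adjusted p = 0.998, edgeR), and without KA replicate 1 it was 2.35 (adjusted p = 0.00581, edgeR). The 2 choroid plexus markers summed to 1451 to 1680 CPM in the kit controls and to 1362, 1330 and 2852 CPM in the KA libraries of replicates 1 to 3, with the highest sum outside the library with the most miR-146a-5p. The 5 red blood cell markers summed to 475, 1308 and 626 CPM in the kit controls and to 433, 1773 and 1345 CPM in the KA libraries. In the KA libraries the order was that of miR-146a-5p. In the controls it was not, as the marker sum was highest in replicate 2 and miR-146a-5p in replicate 3. Of the red blood cell markers tested here, miR-486b-5p had a log2 fold change of 0.64. The estimates of miR-451a, miR-144-3p and miR-144-5p were negative, and none of these markers passed an unadjusted p of 0.05. The part of the choroid plexus and red blood cell markers in the result was not tested.

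**Figure D1:**
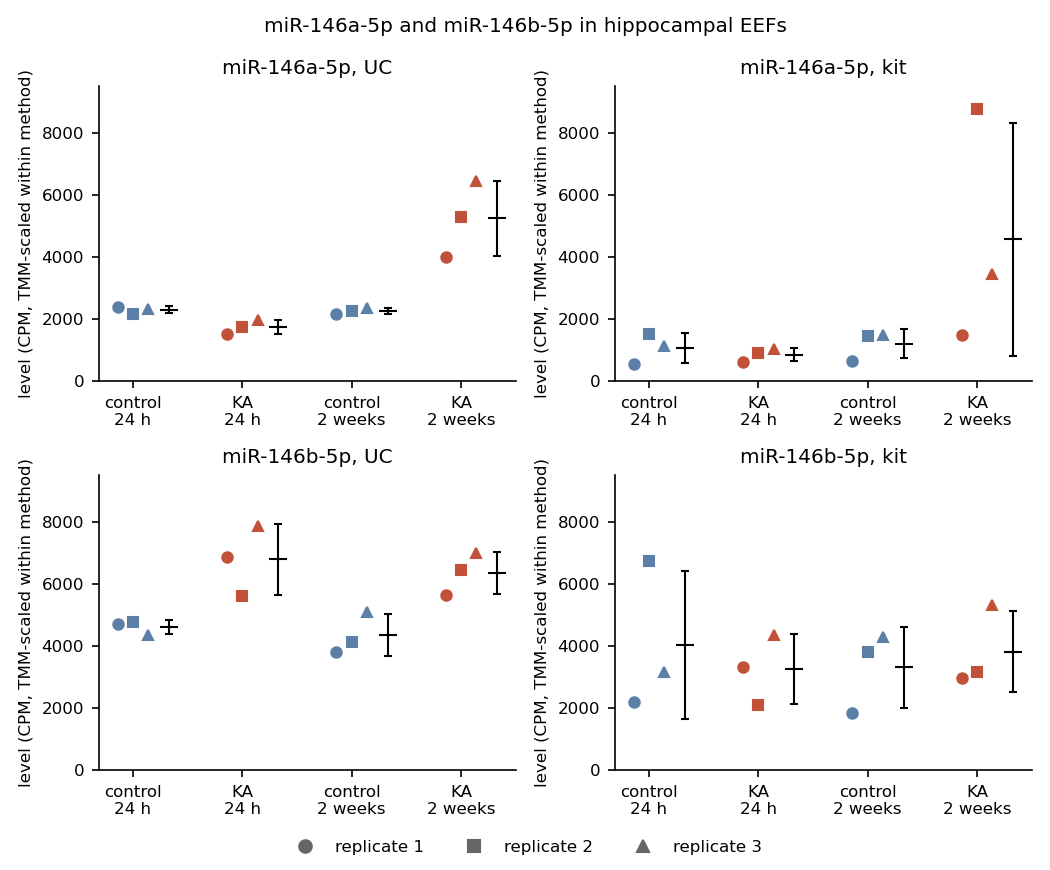
Level of miR-146a-5p (top) and miR-146b-5p (bottom) in CPM, scaled with TMM factors within each method, with UC (left) and the kit (right). Each symbol is 1 library, the marker shape gives the replicate number, and the black line gives the mean and SD of the 3 libraries. The 3 KA libraries at 2 weeks stood at 4009 to 6438 CPM of miR-146a-5p with UC, and with the kit they ranged from 1495 to 8752 CPM.

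At 24 h, miR-146a-5p pointed the other way and no difference was called. With UC, controls had 237, 298 and 292 reads and KA libraries 175, 230 and 177. The KA libraries (1531 to 1980 CPM) lay below the controls (2172 to 2391 CPM) without overlap, and the log2 fold change was -0.39 (95% confidence interval -0.95 to 0.16, unadjusted p = 0.156, edgeR). In this comparison 0.476% of the miRNAs tested were called, none of them among the 7. With the kit, controls had 169, 254 and 322 reads and KA libraries 219, 346 and 272. Here the groups overlapped, and the log2 fold change was -0.32 (95% confidence interval -1.30 to 0.67, unadjusted p = 0.512, edgeR). None of the 520 miRNAs was called (0%), and 4.62% passed an unadjusted p of 0.05, with none of the 7 among them.

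The difference between the times was tested directly. In KA mice, miR-146a-5p was higher at 2 weeks than at 24 h by 1.58 ± 0.28 on the log2 scale with UC (SE, adjusted p = 0.000147, edgeR) and by 2.43 ± 0.49 with the kit (adjusted p = 0.0345, edgeR). It was 1 of the 4 miRNAs called with UC (0.952%) and the only one with the kit (0.192%). The call with the kit was lost without KA replicate 2 at 2 weeks (1.65, adjusted p = 0.409, edgeR) and without any single KA library at 24 h (adjusted p = 0.0837 to 0.329, edgeR). In control mice the same difference with UC was -0.03 (95% confidence interval -0.57 to 0.52) and with the kit it was 0.19 (-0.80 to 1.17), and no miRNA was called with UC (0%) or the kit (0%). The KA effect at 2 weeks exceeded that at 24 h by 1.61 ± 0.39 with UC (SE, adjusted p = 0.0271, edgeR, 0.476% called). With the kit it did so by 2.24 ± 0.67, which passed an unadjusted p (0.00308) and not adjustment (adjusted p = 0.986, edgeR, 0% called). With UC this call did not hold without any 1 of 8 of the 12 libraries, namely each control and each KA library at 24 h, KA replicate 2 and control replicate 3 at 2 weeks (adjusted p = 0.0606 to 0.277, edgeR).

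Over both methods, with method in the model and all 24 libraries, miR-146a-5p was higher in KA mice at 2 weeks by 1.58 ± 0.28 on the log2 scale (SE, 95% confidence interval 1.00 to 2.16, adjusted p = 0.000656, edgeR), as 1 of 2 miRNAs called (0.504% of 397). This call held in each of the 12 fits that left out 1 library, with log2 fold changes of 1.17 to 1.78. It was lost when scaled to the reference miRNAs of the PCR (log2 fold change 1.19, adjusted p = 0.234, edgeR), under which the median of all miRNAs tested was -0.23 (0.09 with TMM). At 24 h the log2 fold change was -0.36 (unadjusted p = 0.205, edgeR), and none of the 7 was among the 0.756% called. No difference in the KA effect between the kit and UC was called for miR-146a-5p. It was 0.07 (95% confidence interval -1.07 to 1.22) at 24 h and 0.73 (-0.40 to 1.86) at 2 weeks, with no miRNA called at 24 h (0%) or 2 weeks (0%).

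miR-146b-5p has the same seed and its own gene on another chromosome. With UC at 24 h, controls had 468, 655 and 544 reads and KA libraries 786, 743 and 704. The KA libraries (5604 to 7876 CPM) lay above the controls (4338 to 4773 CPM) without overlap, whereas miR-146a-5p lay below them in the same libraries. The log2 fold change of miR-146b-5p was 0.56 ± 0.26 (SE, unadjusted p = 0.0388, adjusted p = 1, edgeR), and 2.86% of the miRNAs tested passed an unadjusted p of 0.05. At 2 weeks, controls had 493, 619 and 500 reads and KA libraries 1008, 975 and 965. With TMM factors these groups did not overlap either, at 3814 to 5108 CPM against 5628 to 6980 CPM. Scaled to the library total alone, they overlapped. Control replicate 3 had 500 reads in 85436 counts and KA replicate 3 had 965 reads in 168443 counts. The difference was not called. The log2 fold change was 0.55 ± 0.26 (SE, unadjusted p = 0.0417, adjusted p = 0.577, edgeR), in a comparison where 7.86% passed an unadjusted p of 0.05.

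With the kit, miR-146b-5p overlapped between the groups at both times. At 24 h, controls had 664, 1138 and 911 reads and KA libraries 1169, 805 and 1153. At 2 weeks, controls had 479, 1414 and 1037 reads and KA libraries 715, 1841 and 1452. The log2 fold changes were -0.31 (95% confidence interval -1.13 to 0.51) and 0.20 (-0.61 to 1.02). At 2 weeks 2.69% of the miRNAs passed an unadjusted p of 0.05, miR-146a-5p among them and miR-146b-5p not. The change in the KA effect of miR-146b-5p from 24 h to 2 weeks was -0.01 with UC (95% confidence interval -0.75 to 0.73) and 0.51 with the kit (-0.65 to 1.67). Over both methods its log2 fold change was 0.11 (-0.38 to 0.61) at 24 h and 0.41 (-0.08 to 0.91) at 2 weeks.

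**Figure D2:**
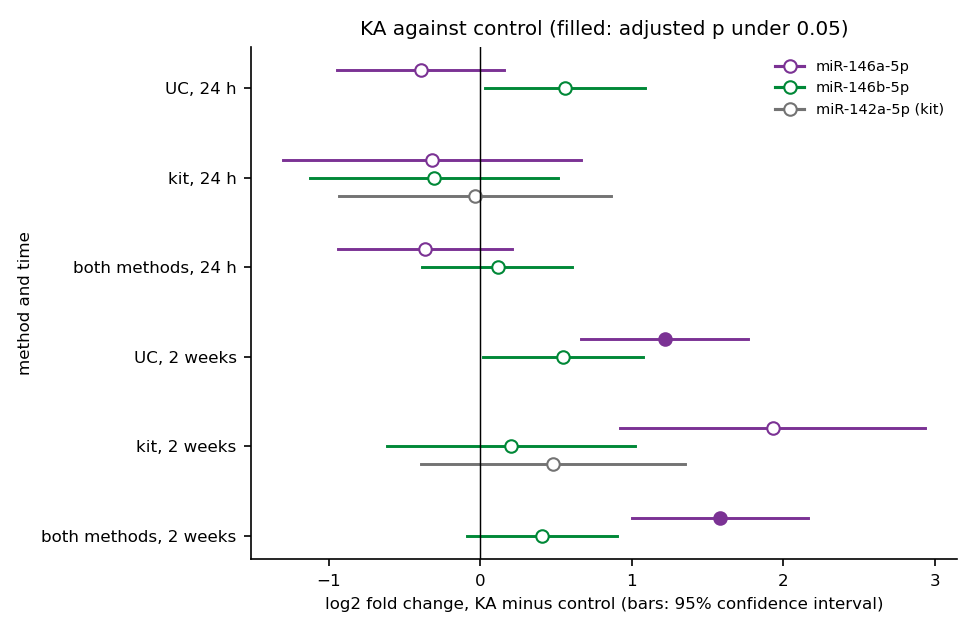
Log2 fold change between KA and control EEFs for miR-146a-5p, miR-146b-5p and, with the kit, miR-142a-5p, by method and time. Points are estimates of edgeR's quasi-likelihood test, bars are 95% confidence intervals, and filled points have an adjusted p under 0.05. Filled points are seen only for miR-146a-5p at 2 weeks, with UC (1.22) and over both methods (1.58).

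Since a full-length read tells the pair apart, the share of miR-146a-5p in the reads of the pair was set out for each library, a measure that was chosen after the values were seen and was not tested. With UC it was 31.3 to 34.9% in controls at 24 h and 31.4 to 36.3% at 2 weeks. In KA libraries it was 18.2 to 23.6% at 24 h and 41.6 to 48.0% at 2 weeks, and thus lay below the controls at 24 h and above them at 2 weeks. With the kit the share was 18.2 to 26.1% in controls and 15.8 to 30.1% in KA libraries at 24 h, which overlapped. At 2 weeks it was 25.6 to 27.7% in controls and 33.4, 73.5 and 39.4% in the KA libraries. In KA replicate 2 of the kit at 2 weeks, miR-146b-5p had 0.361 reads per read of miR-146a-5p, whereas it had more reads than miR-146a-5p in each of the 23 other libraries (1.08 to 5.34 reads per read).

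**Figure D3:**
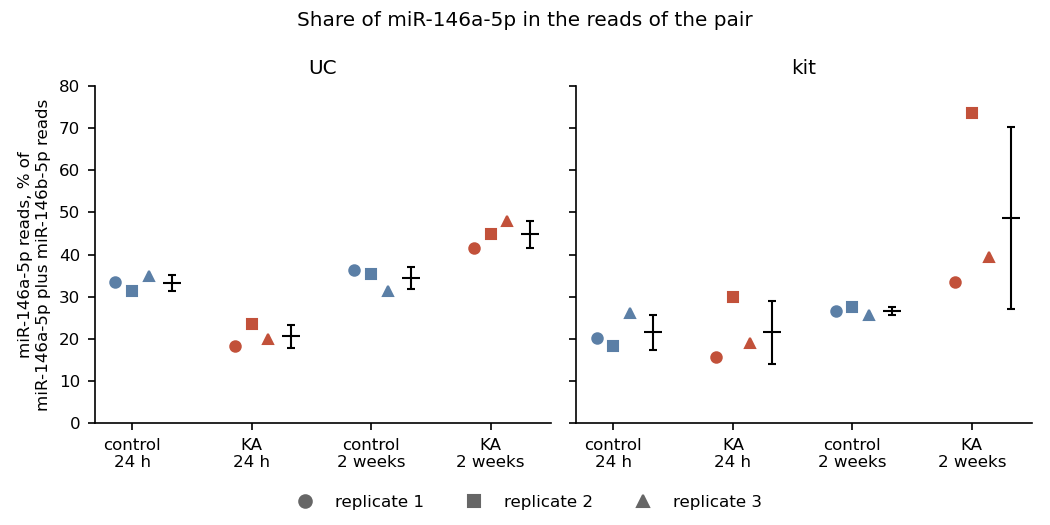
Share of miR-146a-5p in the reads of miR-146a-5p and miR-146b-5p together (in %), with UC (left) and the kit (right). Each symbol is 1 library and the black line gives the mean and SD of 3 libraries. With UC the KA libraries lie below the controls at 24 h (mean 20.6%) and above them at 2 weeks (mean 44.9%), where the controls have means of 33.3% and 34.4%.

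Counted as 1 miRNA with 1 seed, the pair had a log2 fold change with UC of 0.29 at 24 h (unadjusted p = 0.267, edgeR) and of 0.82 at 2 weeks (unadjusted p = 0.00278, adjusted p = 0.211, edgeR). With the kit it was -0.32 at 24 h and 0.89 at 2 weeks (unadjusted p = 0.0383, adjusted p = 0.997, edgeR). The sum was thus not called in these comparisons. It was formed after the values of both miRNAs were seen.

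Both members of the pair were less abundant with the kit than with UC. Over all groups, the log2 difference between kit and UC was -0.86 ± 0.20 (SE, adjusted p = 0.000306, edgeR) for miR-146a-5p and -0.63 ± 0.17 (adjusted p = 0.0018, edgeR) for miR-146b-5p. Of all miRNAs tested, 65.5% were called in this comparison. Scaled to the reference miRNAs of the PCR, the differences were -1.34 and -1.05, with the median of all miRNAs tested at -0.41 (0.03 with TMM). The method and the set of libraries cannot be told apart.

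miR-142a-5p and miR-142a-3p, the 2 arms of a leukocyte hairpin, were present at low counts. With UC, miR-142a-5p had 3, 4 and 6 reads in controls and 6, 3 and 3 in KA libraries at 24 h, and 0, 9 and 6 in controls and 11, 9 and 13 in KA libraries at 2 weeks. With the kit it had 20, 11 and 13 reads in controls and 16, 20 and 20 in KA libraries at 24 h. At 2 weeks the kit controls had 11, 21 and 17 reads and the KA libraries 13, 44 and 29. In CPM the kit groups overlapped at both times, and the mean was 56.4 ± 14.2 CPM in controls and 78.7 ± 26.2 CPM in KA libraries at 2 weeks (SD, n = 3 each). The log2 fold change with the kit was -0.03 (95% confidence interval -0.93 to 0.86) at 24 h and 0.48 (-0.39 to 1.35, unadjusted p = 0.265, edgeR) at 2 weeks. miR-142a-3p had 0 to 4 reads in a UC library and 0 to 13 in a kit library, with the 13 reads in KA replicate 2 at 2 weeks.

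miR-155-5p, the counterpart of miR-146a in NF-kB signaling, was barely detected. It had 9 reads in 7 of the 24 libraries, with at most 2 in a library. Of these, 4 were in KA libraries at 24 h, 4 in controls at 2 weeks and 1 in a KA library at 2 weeks. A difference between KA and control was not detectable at this depth. miR-146a-3p, the passenger arm of the miR-146a hairpin, had a single read, in KA replicate 2 of the kit at 2 weeks, where the 5p arm had 5100 reads. With UC it had no read, which allows a share of up to 0.000192% of the counts (3 counts over the 12 libraries, counting error only).

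miR-223-3p, a miRNA of neutrophils and other myeloid cells, had 2 reads with UC and 35 with the kit, of which 15 were in control replicate 1 at 24 h. The other kit libraries had 0 to 6 reads. Of its 37 reads, 32 carried an addition at the 3′ end, and 29 of these (78.4% of all its reads) were listed as ending 3 or more bases before the annotated end. In miR-142a-5p that share was 5.84% of 308 reads, in miR-146b-5p 0.2% and in miR-146a-5p 0.05%. As listed, most reads named miR-223-3p thus did not hold its full annotated sequence.

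**Figure D4:**
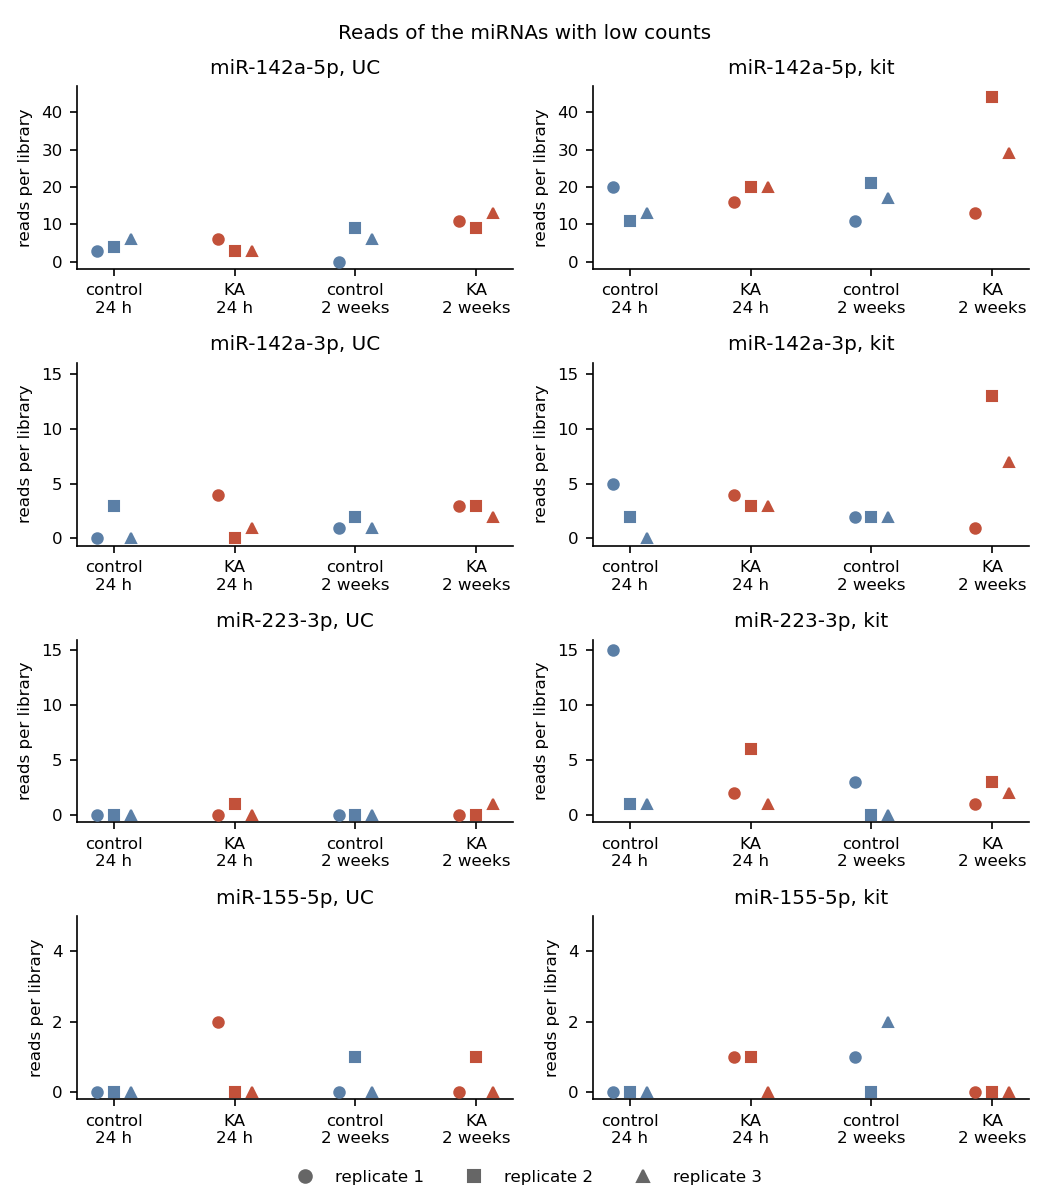
Reads per library of miR-142a-5p, miR-142a-3p, miR-223-3p and miR-155-5p (rows) with UC (left) and the kit (right). Each symbol is 1 library, and the scale differs between rows. Counts stayed at or below 13 with UC, and the highest value is 44 reads of miR-142a-5p in KA replicate 2 of the kit at 2 weeks.

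Both members of the pair also differed at their 3′ ends. Reads with bases added behind the end of the miRNA made up 35.4% ± 7.25 of miR-146a-5p (SD, n = 24 libraries, 20.4 to 46.9%) and 4.34% ± 0.85 of miR-146b-5p (2.56 to 5.60%). The lowest share of miR-146a-5p lay above the highest of miR-146b-5p. Additions of U alone made up 18.8% and 0.74% as means over the libraries. Among all miRNAs with enough reads to be tested, the median share of reads with an addition was 12.1%, with 84.9% of these miRNAs below miR-146a-5p and 17.8% below miR-146b-5p. The hairpin goes on with A, U, A behind miR-146a-5p and with G, U, G behind miR-146b-5p, so that a single U at the first added position does not come from either hairpin. Pooled over the 24 libraries, such reads made up 14.1% of the reads of miR-146a-5p and 0.09% of those of miR-146b-5p. Additions of U alone, pooled in the same way, made up 16.7% and 0.74%. Base changes inside the miRNA were rare in both (0.08% and 0.094% of reads).

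The share of miR-146a-5p reads with an addition was lower in KA than in control libraries, with a difference of -6.35 percentage points averaged over the 4 pairs of groups. With UC at 2 weeks, it was 40.6, 36.3 and 44.5% in controls and 35.4, 30.3 and 31.8% in KA libraries, without overlap. With the kit at 2 weeks, the groups overlapped, at 39.9, 25.5 and 28.3% in controls and 29.0, 20.4 and 25.4% in KA libraries, and the lowest value of all was in KA replicate 2. At 24 h the group means were 42.3% in controls and 37.1% in KA libraries with UC, and 40.2% and 34.3% with the kit, and the ranges overlapped. An exact two-sided permutation test within the 4 pairs of groups gave p = 0.00833 for miR-146a-5p, which did not pass Benjamini-Hochberg adjustment over all miRNAs tested (adjusted p = 0.292, 0% called, 8 miRNAs at an unadjusted p under 0.05). The difference was -6.60 with UC libraries only (exact permutation p = 0.015) and -6.10 with kit libraries only (exact permutation p = 0.14). Without replicate 2 it was -4.91 (exact permutation p = 0.0941). Without replicate 1 or replicate 3 the exact permutation p was 0.0123 or 0.00772. For miR-146b-5p the difference was 0.43 percentage points (exact permutation p = 0.191, adjusted p = 0.838). Counted on reads without any listed change, miR-146a-5p was called at 2 weeks with UC (1.34, adjusted p = 0.00212, edgeR) and with the kit (2.09, adjusted p = 0.00703, edgeR), an alternative added after the data were seen.

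**Figure D5:**
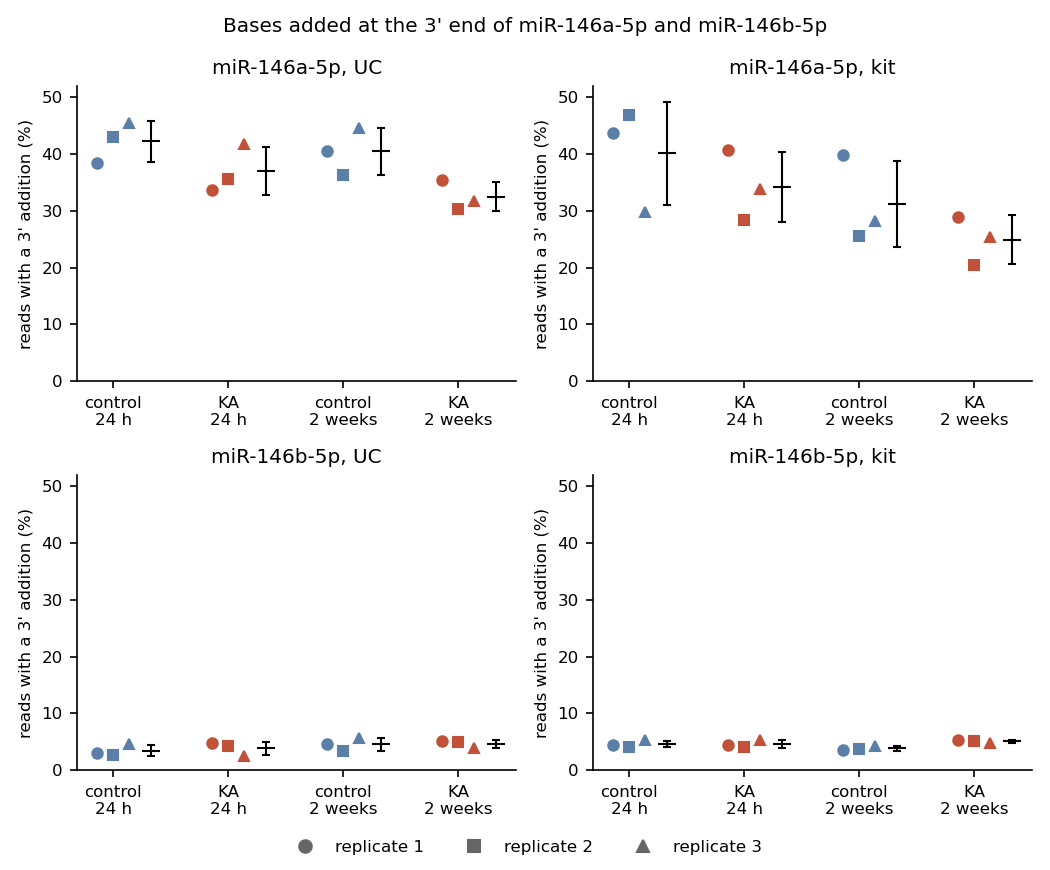
Share of reads with bases added at the 3′ end (in %) for miR-146a-5p (top) and miR-146b-5p (bottom), with UC (left) and the kit (right). Each symbol is 1 library and the black line gives the mean and SD of 3 libraries. miR-146a-5p lies between 20.4 and 46.9% and miR-146b-5p between 2.56 and 5.60% in every library.

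Of 16 further miRNAs linked to immune signaling, 14 had a read, 9 were tested with UC and 10 with the kit. With UC, miR-21a-3p and miR-21a-5p were called higher in KA mice at 24 h (2 of 9, where 0.476% of all miRNAs tested were called). These 2 arms of 1 hairpin were the only miRNAs called there. miR-21a-5p was also called at 2 weeks (1 of 9, where 0.952% were called). The list was drawn up with earlier results of these data known. These shares, and the medians of the list given below, thus say nothing about immune-linked miRNAs as a set. At 24 h, the log2 fold change of miR-21a-3p was 2.25 (adjusted p = 8.71e-05, edgeR), and the 95% confidence interval of miR-21a-5p was 0.94 to 2.05 (adjusted p = 0.000413, edgeR). At 2 weeks, miR-21a-5p had a log2 fold change of 1.08 (adjusted p = 0.0326, edgeR). With the kit, none of the 10 was called at either time, and neither was any other miRNA (0%). There miR-21a-5p had a log2 fold change of 0.89 at 24 h (adjusted p = 0.673, edgeR) and of 1.46 at 2 weeks (adjusted p = 0.0623, edgeR). The CREB-regulated neuronal miR-132-3p passed no more than an unadjusted p over both methods (passed by 5.29% of the miRNAs tested at 24 h and 6.55% at 2 weeks), with log2 fold changes of 0.45 at 24 h (unadjusted p = 0.0488, edgeR) and 0.47 at 2 weeks (unadjusted p = 0.0429, edgeR). The median log2 fold change of the miRNAs of this list that were tested was 0.09 at 24 h and 0.39 at 2 weeks with UC. Over all miRNAs tested it was 0.06 and 0.02. With the kit the order of the times was reversed, at 0.42 and 0.21 for the list and 0.09 and -0.01 over all.

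In the comparison of the kit with UC, 8 of the 9 miRNAs of this list that were tested were called, where 65.5% of all miRNAs tested were called. Higher with the kit were miR-125a-5p, miR-125b-5p, miR-187-3p, miR-21a-5p, miR-221-3p, miR-222-3p and miR-342-3p, by 0.56 to 1.94 on the log2 scale, and lower was miR-21a-3p, by -1.77.

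Markers of other cell types that EEFs could hold were also read. Not all of them had enough reads to be tested. With UC, 1 of 5 red blood cell markers and 1 of 2 choroid plexus markers were tested, and the lymphocyte marker was not. With the kit, 4 of 5 red blood cell markers and 1 of 2 choroid plexus markers were tested. Of the markers tested within a method, which also covered endothelium, neurons and oligodendrocytes, only miR-204-5p with UC at 2 weeks passed an unadjusted p of 0.05 between KA and control. Over both methods at 2 weeks, 3 markers passed an unadjusted p, as did 6.55% of all miRNAs tested, and none was called. These were miR-204-5p (log2 fold change 1.09, unadjusted p = 0.00399, edgeR), the red blood cell marker miR-486b-5p (0.69, unadjusted p = 0.0354, edgeR) and the oligodendrocyte marker miR-338-3p (0.41, unadjusted p = 0.0421, edgeR). At 24 h over both methods, no marker that was tested passed. The red blood cell markers summed to 433, 472 and 501 CPM in UC controls at 2 weeks and to 357, 390 and 1519 CPM in UC KA libraries. In both groups the order was that of miR-146a-5p. KA replicate 3 thus had the highest marker sum and the highest miR-146a-5p level. In these KA libraries miR-451a, miR-144-3p, miR-144-5p and miR-486a-5p were at 0. miR-150-5p, the lymphocyte marker, was at 0 in the UC KA libraries and reached 11.4 CPM at most with the kit. The part of these cells in the level of miR-146a-5p was not tested.

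By level over the 8 groups, the order of miR-146a-5p with UC was KA at 2 weeks, then both control groups and KA at 24 h, where the controls at 24 h (2297 ± 113 CPM) and 2 weeks (2255 ± 83.0 CPM) did not differ beyond their spread. With the kit, KA at 2 weeks (4570 ± 3753 CPM) came before controls at 2 weeks (1201 ± 467 CPM), controls at 24 h (1060 ± 474 CPM) and KA at 24 h (849 ± 205 CPM), and the ranges of the last 3 overlapped. The lowest KA library at 2 weeks (1495 CPM) also lay below the highest control at 24 h (1504 CPM). Among 189 miRNAs with at least 120 reads with each method, the 5 whose group means were most like those of miR-146a-5p were miR-1298-5p, miR-10a-5p, miR-448-3p, miR-486b-5p and miR-25-3p. Likeness was the root mean square difference of log2 CPM over the 8 groups, centred within method, and it was 0.34 for miR-1298-5p and 0.44 to 0.53 for the other 4, against a median of 0.72. miR-21a-5p ranked 32nd and miR-146b-5p 62nd. Of the 5, miR-486b-5p is one of the red blood cell markers read above. miR-25-3p is one of the reference miRNAs of the study's PCR, and its group mean stood 0.56 above its UC average in KA EEFs at 2 weeks.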

How the data were processed

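Small RNA libraries of EEFs were mapped by the authors to the hairpins of miRBase v21 with the Chimira server after adapter trimming, and what was deposited are raw read counts for each mature miRNA in each library. A second deposited table gives counts of reads by added bases and base changes. Once repeated entries were dropped, the totals of both tables were equal for 11992 of 11992 combinations of miRNA and library. How reads matching several hairpins were assigned is not given in the sources used here. The miRNAs and lists were chosen with earlier results of these data known. Groups follow the labels of each sample.

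The quasi-likelihood test of edgeR 4.0.16 (R 4.3.3) was run on the counts with TMM scaling and group means as coefficients, for the 12 libraries of UC or the kit or for all 24 and without a replicate block, with Benjamini-Hochberg adjustment. A miRNA was tested with a CPM over 1 in at least 6 libraries, the filter of the study, which 1 read meets in a library here. Biological replicates are pools, and standard errors were worked out from fold changes and F statistics. limma 3.58.1 (voom) and DESeq2 1.42.0 were alternatives, beside other scalings and filters, the replicate block, fits restricted to 6 libraries, and leaving out single libraries. Each test was first tried on simulated data with known changes. Shares of reads with an addition were compared in Python 3.11.15 with exact permutation tests within the 4 pairs of groups. An added base at position 1 was read as the first base past the annotated end, since 99.9% of 1455 A-to-G entries then fall on an A of the hairpin. The miRNAs named beside the members are those of a list of 16 immune-linked miRNAs past an adjusted p, or past an unadjusted p of 0.05 between KA and control, the cell type markers and the 5 miRNAs most like miR-146a-5p. The replicate numbers come from the labels. As a check of pairing, deviations from the group means of libraries with the same number correlated over 0.1 in every pair between control and KA at 2 weeks (0.18 to 0.327 with UC, 0.286 to 0.526 with the kit) and between KA at 24 h and 2 weeks (0.18 to 0.445 and 0.115 to 0.541), and not between control and KA at 24 h. Sequences and places are from RefSeq (GRCm38.p6), and genes at these places from GENCODE M21. Coordinates of the authors' mapping were not used.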

Additional observations from a re-analysis of the deposited data

Results flagged for a closer look

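The effect of KA on miR-146a-5p differed between the times with UC. It was higher at 2 weeks than at 24 h by 1.61 on the log2 scale (adjusted p = 0.0271, edgeR). The log2 fold change was 1.22 at 2 weeks (95% confidence interval 0.67 to 1.77). At 24 h it was -0.39 (-0.95 to 0.16, unadjusted p = 0.156, edgeR), which was not called. The call of the difference held in 4 of the 12 fits that left out 1 library and was lost under 5 of 9 other settings. With the kit the difference was 2.24 (adjusted p = 0.986, edgeR).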

How the results depend on the processing

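Calls over the 7 miRNAs came from miR-146a-5p, apart from those between kit and UC, and are given here as the number called. With UC at 2 weeks, 1 was called in the main test and 0 when scaled by library size alone or to the 2 reference miRNAs of the PCR (miR-25-3p, miR-92b-3p), with no filter, or in a fit of the 6 libraries, and 0 to 1 when a library was left out. With the kit at 2 weeks, 0 turned to 1 with no filter, the replicate block, or reads without a listed change, and was 0 to 1 with a library left out. Between times in KA mice, 1 turned to 0 with UC under scaling to the reference miRNAs, and with the kit under at least 10 counts in at least 6 libraries, limma-voom, or a library left out (0 to 1). For the change in the KA effect, 1 turned to 0 with UC under library size only, this scaling, no filter, limma-voom, reads without a listed change, or a library left out (0 to 1), and 0 to 1 with the kit under this scaling or no filter. Over both methods at 2 weeks, 1 turned to 0 under this scaling. The cause of these changes was not tested.

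The other changes of sign were in values that were not called in the main test, most of them close to 0. For miR-146a-5p, the difference between times in UC controls (-0.03) was 0.03 with library size only, 0.05 with no filter and 0.04 on reads without a listed change (-0.07 to 0.01 with a library left out). In kit controls (0.19) it was -0.42 when scaled to the reference miRNAs (-0.12 to 0.52). The difference between methods in its KA effect at 24 h (0.07) was -0.00 with RLE size factors and with DESeq2, -0.13 with library size only and -0.57 with that scaling (-0.15 to 0.38). At 2 weeks it ranged from -0.13 to 1.13 with a library left out, and the KA effect with the kit at 24 h from -0.62 to 0.02.

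For miR-146b-5p, scaling to the reference miRNAs gave -0.05 with UC at 2 weeks, -0.17 over both methods at 24 h (-0.03 to 0.40 with a library left out) and 0.31 for the difference between methods at 2 weeks. The change in its KA effect with UC was 0.02 with limma-voom and 0.01 with the replicate block (-0.13 to 0.12). With a library left out, it was -0.08 to 0.88 with the kit. The same ranges for its KA effect with the kit were -0.64 to 0.28 at 24 h and -0.11 to 0.52 at 2 weeks. Between times in KA mice they were -0.22 to 0.03 (UC) and -0.06 to 0.58 (kit), and -0.58 to 0.31 in kit controls. For miR-142a-5p with the kit they were -0.32 to 0.09 for KA at 24 h and -0.29 to 0.11 between times in controls. The replicate block changed no other call of the 7 miRNAs. Depth limits the 5 sparse miRNAs.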
